A study of Mus musculus with 24 samples.

Results

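Gene expression of a mouse melanoma line recovered from long tumour dormancy was compared with that of the line it came from. The parental line, B16F1-GFP-M (called M here), is B16-F1 melanoma of C57BL/6 origin that carries green fluorescent protein, and 3 arrays measured it. The recovered line, B16F1-GFP-D (D), was taken from a syngeneic mouse that had been vaccinated with irradiated cells making GM-CSF and in which tumour cells had stayed dormant for a long period, and 4 arrays measured it. These 7 arrays are part of 24 in the series, all of cultured lines. The series also holds the myeloid leukemia lines M0 and J365. Their arrays enter the main fit, and so the spread behind its p-values. The lines B16F1-GFP-DB#1 (4 arrays), DB#2 (3) and DB#3 (3) are a next generation from a brain site and serve as a reference for how far D differs from its successors. All 5 melanoma lines carried GFP and were grown in the same medium with serum and with no further agent, and D had been expanded in vitro and frozen before RNA was made. M was not itself passed through a vaccinated mouse, and each line is 1 culture history, so passage through the mouse, expansion and drift cannot be told apart. The labels do not say that replicates are separate cultures, and p-values then measure only the spread between these samples, which may be technical.

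Dormant tumour cells persist in a host without net growth and can later give rise to relapse. In melanoma the melanocyte programme, driven by MITF and SOX10, makes the pigment enzymes, and cells can move between this state and less differentiated ones with more matrix and actin genes. Interferons, released by immune cells and by tumour cells, act through a complex that holds STAT2 and IRF9 on a shared set of antiviral genes.

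Each array gave a normalized log2 signal per gene, which is the log2 intensity minus the 75th percentile of that array. A gene was called read on an array where the scanner software marked its probe as well above background, and a gene was tested where it was read on every array of at least 1 of both lines. The share of probes read was 49.3% to 52.1% on the M arrays and 43.6%, 50.4%, 89.9% and 53.3% on D replicates 1 to 4, so that D replicates 1 and 3 stood apart. For many results that rest on them, the outcome without them is given. The 11 melanocytic markers were read on all 7 arrays. Of 14 blood markers, 6 to 7 were read on the M arrays and 5 to 12 on the D arrays, or 5 to 7 without D replicate 3. Of 14 fibroblast markers, 3 were read on each M array and 3 to 12 on the D arrays, or 3 to 4 without D replicate 3. Of 10 endothelial markers, 1 to 2 were read on the M arrays and 1 to 7 on the D arrays, or 1 to 2 without D replicate 3. In bulk RNA of this kind fewer cells of a type and less RNA per cell cannot be told apart.

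Of 20145 genes tested between D and M, 1083 differed at an adjusted p under 0.05, which was 5.38% of the genes tested. Of these, 413 were higher in D (2.05%) and 670 were lower (3.33%). A difference of at least 2-fold was seen in 392 of them, 210 higher and 182 lower. The arrays of both lines did not overlap in 1699 genes (8.43% of those tested), 839 of which were among the called genes. All 3 slides gave the same direction in 1074 of the 1083 genes, a count that the choice of genes on these same arrays largely fixes. Leaving out any 1 of the 7 arrays kept 400 of them called, leaving out D replicate 3 kept 752 and leaving out D replicate 1 kept 976. A fit of the 7 arrays alone, with far fewer degrees of freedom, called 105 genes.

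The largest rises among genes read on every array were in a pair of endoplasmic reticulum proteins that assist collagen folding. Fkbp10, a prolyl isomerase that acts on procollagen and lies on chromosome 11, had a normalized log2 signal of -3.15, -3.87 and -3.56 on M replicates 1 to 3 and of 1.49, 1.37, 0.67 and 1.03 on D replicates 1 to 4. Every D array lay far above every M array, and the log2 fold change was 4.66 ± 0.31 (SE; limma, adjusted p = 1.85e-08). Rcn3, a calcium-binding protein of the same compartment, read -4.02, -3.66 and -3.62 in M and 0.68, 1.05, 0.67 and 0.98 in D, a log2 fold change of 4.54 ± 0.32 (adjusted p = 2.95e-08). The 3 probes read for Rcn3 gave between 3.54 and 4.54. Both genes were also higher in each DB line than in M, by log2 6.53, 2.38 and 6.52 for Fkbp10 and by 5.95, 3.34 and 4.81 for Rcn3 in DB#1, DB#2 and DB#3, a comparison that shares the M arrays with the one of D.

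**Figure D1:**
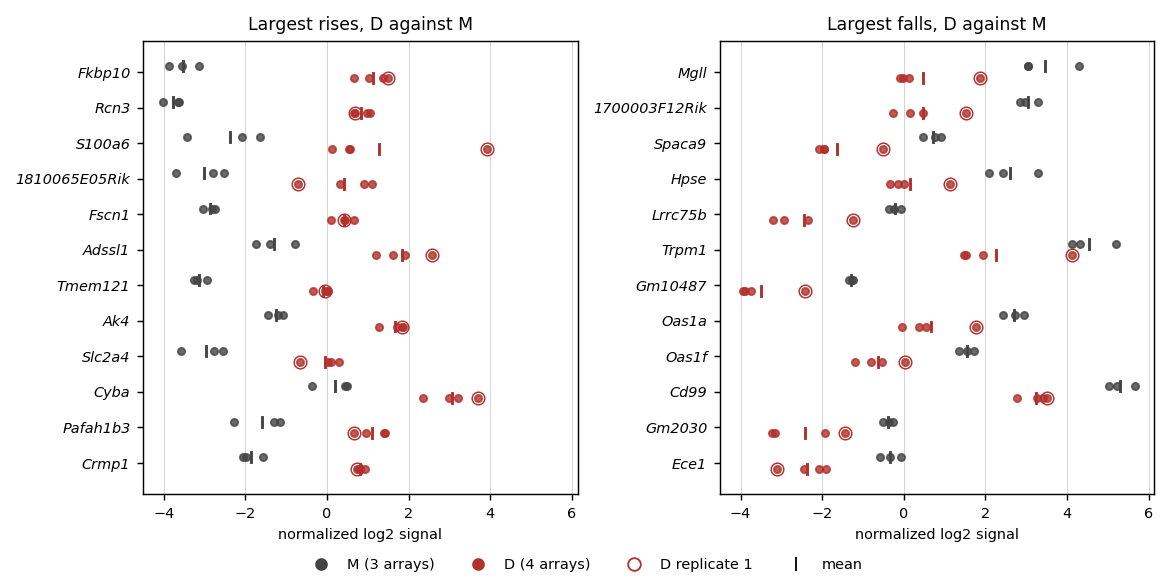
Normalized log2 signal (x axis) of the 12 genes with the largest rise (left) and the 12 with the largest fall (right) in D against M, among called genes read on every array whose lines do not overlap. Each point is 1 array, vertical marks are means, and open circles ring D replicate 1, which was the highest D array in 11 of the 12 falls, nearest to M.

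These rises did not extend to the collagen-folding list as a whole. Of 28 tested genes for collagen folding and modification, 3 were higher and 1 was lower, and their median log2 difference was -0.06, beside -0.01 over all tested genes. Counts in this and the following lists stand beside 2.05% of all tested genes higher and 3.33% lower. The third rise was P4ha2, a subunit of prolyl 4-hydroxylase (0.85 ± 0.16, adjusted p = 0.0034), and the fall was Fkbp14, another prolyl isomerase, at -1.02 ± 0.15 (adjusted p = 2.46e-04).

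Matrix and actin genes gave several of the clearest differences, because they were read in D and on no M array. Of the 1083 called genes, 41 with a RefSeq symbol were read on every D array and no M array, and matrix and actin genes were only part of these. The fold of each one named is given as a lower bound under the main processing, taken against the dimmest signal that could be read. Myl9, the regulatory light chain of non-muscle and smooth muscle myosin, had signals of -5.02, -4.42 and -4.26 in M and of 0.89, 0.79, 0.28 and 0.71 in D, at least 30.6-fold higher in D (adjusted p = 2.93e-10). Col4a1, a chain of basement membrane collagen, lay between -5.99 and -5.86 in M and between -1.35 and -0.82 in D, at least 9.19-fold higher (adjusted p = 3.25e-12). Hapln1, which links hyaluronan to proteoglycans, was at least 9.11-fold higher (adjusted p = 2.80e-06), and Emilin1, a glycoprotein of elastic fibres, at least 8.38-fold (adjusted p = 3.25e-12). Over the alternatives tried, the lowest log2 estimates were 3.03 for Myl9, 1.69 for Col4a1, 1.98 for Hapln1 and 1.69 for Emilin1. These lay below the log2 bounds of 4.93, 3.20, 3.19 and 3.07, and each gene kept its call.

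Col4a2 is the partner chain of Col4a1, and in the RefSeq table of assembly GRCm38.p6 both genes start on chromosome 8 with 21 bases between the start sites, on opposite strands. Its signals were -2.99, -4.47 and -4.03 in M and -2.11, -2.97, -0.998 and -3.17 in D. D replicate 4 lay below M replicate 1, so the lines overlapped, although the fit gave 1.54 ± 0.42 (adjusted p = 0.036), and it was not called without D replicate 3 or without D replicate 1. Within slide 3 the difference was -0.18, against rises on the others. Of 16 collagen genes tested, 3 were higher (Col4a1, Col4a2 and Col7a1 at 1.34 ± 0.28) and none (0) was lower, with a median of 0.26. That median rests on D replicate 3, which read 41 of the 42 collagens on the array, against 15 to 19 on the others. Without it the median was 0.04 and 2 genes were higher, without D replicates 1 and 3 the median was -0.06, and with quantile normalization it was -0.05.

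Among 31 laminins and other matrix glycoproteins, 3 were higher and 3 lower, with a median of 0.08. The higher ones were Emilin1, the laminin chain Lamb1 (1.38 ± 0.36, adjusted p = 0.028) and Sparcl1 (0.59 ± 0.13). For Lamb1, M replicate 1 read 1.12 and overlapped the D arrays, at 1.00 to 1.37, while the other M arrays read -0.88 and -0.91, and it was not called without D replicate 1. Fbln5 (-1.16 ± 0.29), Thbs3 (-0.74 ± 0.18) and Fbln1 (-0.51 ± 0.13) were the lower ones, and only 1 gene of this list was called lower without D replicate 3.

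Proteases and matrix-modifying enzymes changed in both directions, with 3 of 38 higher and 3 lower (median -0.02). Hpse, heparanase, which cleaves heparan sulphate, read 3.28, 2.43 and 2.09 in M and 1.14, 0.01, -0.34 and -0.15 in D. Every D array lay below every M array, and the log2 fold change was -2.40 ± 0.35 (adjusted p = 2.23e-04). Adam19, a membrane metalloprotease, rose by 2.23 ± 0.30 (adjusted p = 1.06e-04) while the membrane collagenase-activating protease Mmp16 fell by 1.18 ± 0.22 (adjusted p = 0.0023). Mmp16 was not called when the mean of its detected probes replaced the brightest, and its estimates over the alternatives ran from -1.78 to -0.21. Adam12 was called (1.24 ± 0.32, adjusted p = 0.026), but D replicate 1, at -2.86, lay within the M range, and without D replicate 3 it stood at 0.85 (adjusted p = 0.077).

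Among actin and contractile genes Myl9 and Fscn1 gave large rises and the falls were smaller. Fscn1, fascin, which bundles actin in protrusions, had signals of -2.74, -2.81 and -3.04 in M and 0.43, 0.67, 0.11 and 0.45 in D. Again every D array lay above every M array, and the log2 fold change was 3.25 ± 0.15 (adjusted p = 8.33e-11). Gsn, gelsolin, which severs actin filaments, was lower (-1.13 ± 0.28, adjusted p = 0.024), as were Myl6 (-0.54 ± 0.14) and Pls3 (-0.54 ± 0.14). Of 53 genes in this list, 2 rose and 3 fell, with a median of 0.00, and without D replicate 3 none (0) was called lower and 5 were called higher.

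**Figure D2:**
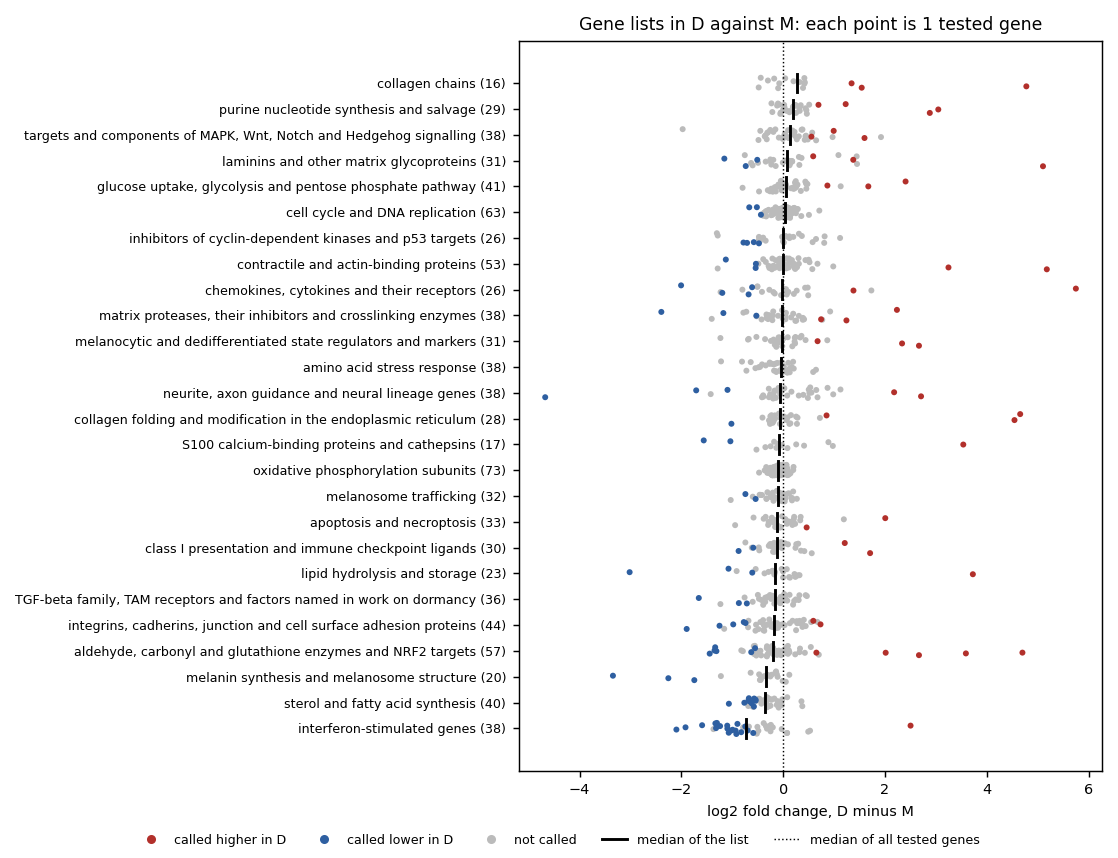
Log2 fold change of D against M (x axis) for every tested gene of 26 lists, 1 point per gene, with the number tested in parentheses. Red and blue mark genes called higher and lower in D, bars mark list medians and the dotted line the median of all tested genes; the interferon list has the lowest median, -0.72.

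Interferon-stimulated genes had the lowest median of all lists. Of 38 tested members, 19 were lower in D and 1 was higher, with a median log2 difference of -0.72, whereas 3.33% of all tested genes were lower. Among the 20 called members the lines did not overlap in 15, a share near that of all called genes (839 of 1083). The medians within slides 1, 2 and 3 were -0.69, -0.80 and -0.78. Without D replicate 3 the count was again 19 lower with a median of -0.68, and without D replicate 1 it was 20 lower with a median of -0.85. With the 7 arrays fitted alone 2 members were called lower and the median was -0.75.

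The falls included sensors, signal carriers and effectors of the pathway. Oas1a, an antiviral 2'-5'-oligoadenylate synthetase on chromosome 5, read 2.43, 2.72 and 2.95 in M and 1.76, 0.54, -0.04 and 0.37 in D, a log2 fold change of -2.10 ± 0.26 (adjusted p = 3.46e-05). D replicate 1 was the highest D array in 12 of the 19 falls, Oas1a among them, where it still lay below every M array. Oas1f of the same family, which the list did not hold, fell by 2.09 ± 0.23 (adjusted p = 1.33e-05).

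Of the factors that carry the interferon signal, Stat2 read 0.48, 0.83 and 1.204 in M and -0.50, 0.26, -0.34 and -0.14 in D (-1.07 ± 0.19, adjusted p = 0.0022). Irf9, its DNA-binding partner, differed by -0.83 ± 0.12 (adjusted p = 3.21e-04). Both were lower in D with no overlap between lines, and Irf7, which amplifies interferon production, also fell (-1.10 ± 0.22, adjusted p = 0.0056) although D replicate 1 lay inside the M range.

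The RNA sensor Ddx58 (RIG-I) fell by 1.24 ± 0.19 (adjusted p = 4.92e-04) and its ubiquitin ligase Trim25 by 0.99 ± 0.12 (adjusted p = 2.26e-05). Among effectors, Parp14 fell by 1.33 ± 0.19 (adjusted p = 1.83e-04), Usp18, which removes ISG15 from proteins, by 1.30 ± 0.25 (adjusted p = 0.0034) and Bst2 (tetherin) by 0.92 ± 0.18 (adjusted p = 0.0041). Other members that fell were Oas2, Oas1c, Xaf1, Ifi27, Samd9l, Ifitm3, Parp12, Ifi35 and Parp9, from -1.92 for Oas2, read on 1 D array, to -0.59 for Parp9. Ifitm3 was not called without D replicate 3, nor was Oas2 when the mean of its detected probes replaced the brightest.

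Not all interferon genes were lower. Oasl1, an inhibitor of Irf7 translation, was called higher (2.50 ± 0.59, adjusted p = 0.017), but its D arrays split, with -0.02 and -0.16 on replicates 1 and 3 and -3.24 and -3.44 on replicates 2 and 4, beside -4.34 to -4.07 in M. Without D replicate 3 it was not called. Isg15 (-0.79), Ifit3 (-0.24), Ifit1 (0.08) and Cxcl10 (0.49) did not pass the test.

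**Figure D3:**
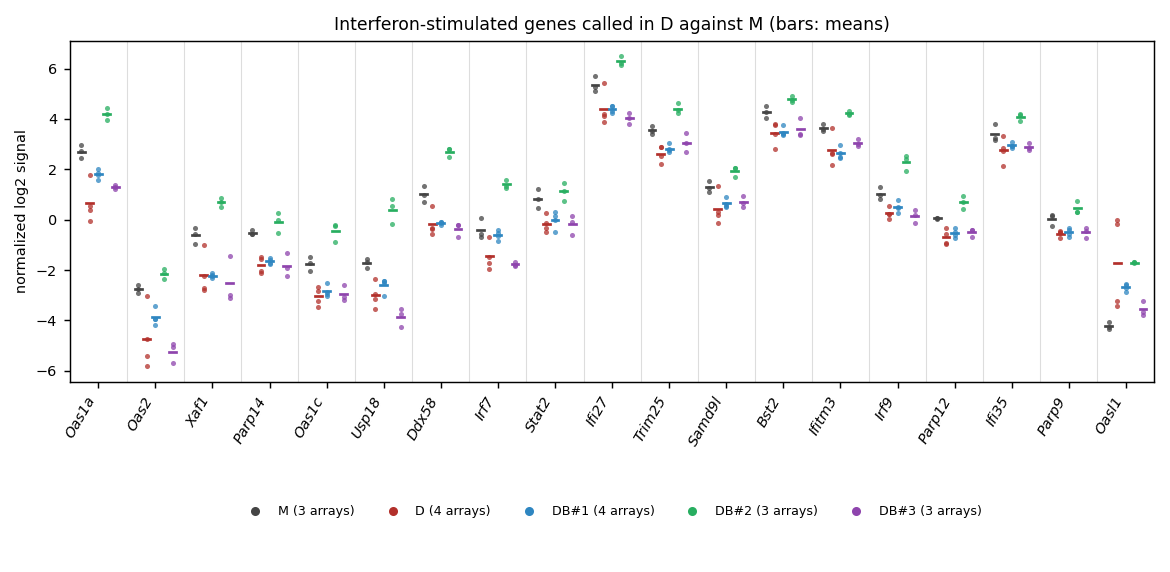
Normalized log2 signal (y axis) of 19 interferon-stimulated genes called in D against M, on the arrays of the 5 melanoma lines. Each point is 1 array and bars are means; for all genes shown but Oasl1 the mean of D lies below that of M and the mean of DB#2 above both.

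Many interferon genes carry an interferon-response element near their start, and the upstream stretches of members that fell are shown for that reason. They come from the RefSeq promoter table (GRCm38.p6; 250 bases before to 50 after each start), run 5′ to 3′ on the strand of the gene, and have in capitals each match, on either strand and with overlaps merged, of GAAANNGAA, the spaced repeat at the centre of that element.
Oas1a, chr5:120907526-120907575, minus strand: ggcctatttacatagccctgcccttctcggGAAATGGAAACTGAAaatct
Oas1c, chr5:120812583-120812657, minus strand: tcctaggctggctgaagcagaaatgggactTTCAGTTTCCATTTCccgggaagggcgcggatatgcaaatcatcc
Bst2, chr8:71537558-71537632, minus strand: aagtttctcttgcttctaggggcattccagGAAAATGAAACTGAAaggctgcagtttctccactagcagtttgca
Stat2, chr10:128270248-128270315, plus strand: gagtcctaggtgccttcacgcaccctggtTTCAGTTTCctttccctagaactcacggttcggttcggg
Trim25, chr11:88999364-88999402, plus strand: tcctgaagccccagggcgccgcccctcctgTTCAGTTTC

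In Oas1a, Oas1c and Bst2 a pair of matches overlaps to give 1 longer run, and in Trim25 the match ends at the base before the start. The table held 13 of the 19 interferon genes that fell, and 8 of these had a match (61.5%). It held 16 of the 19 tested members not called lower, and 10 of these had one (62.5%). Of 10211 tested genes with an entry, 853 had a match (8.35%), and of all 27025 entries 2638 had one (9.76%). The share was thus much the same in members that fell and in those that did not, and a match describes letters in this window, not a bound site.

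Genes of sterol and fatty acid synthesis also lay lower in D. Of 40 tested, 10 were lower, beside 3.33% of all tested genes, and none (0) was higher, with a median of -0.36, and 37 of the 40 estimates were below 0. Sqle, squalene epoxidase, read 4.78, 4.69 and 4.98 in M and 4.62, 4.36, 3.57 and 4.18 in D (-0.67 ± 0.16, adjusted p = 0.015). D replicate 1 came close to the lowest M array. The largest fall was that of Tm7sf2, a sterol reductase, which read 2.40, 2.22 and 2.64 in M and 1.87, 1.44, 1.04 and 1.25 in D (-1.07 ± 0.15, adjusted p = 1.44e-04).

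The other falls lay along the same route from mevalonate to cholesterol. They were Pmvk (-0.54), Fdps (-0.62), Fdft1 (-0.68), Cyp51 (-0.57), Msmo1 (-0.76) and Nsdhl (-0.58), with the sterol sensor Insig1 (-0.67) and the transfer protein Stard4 (-0.54). The regulator Srebf2 differed by -0.23 ± 0.14 and did not pass. The count depended on D replicate 3, without which 3 of the 40 were lower, while the median was still -0.33.

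In lipid breakdown the differences were larger but fewer. Mgll, monoacylglycerol lipase, read 4.29, 3.04 and 3.05 in M and 1.87, 0.14, -0.10 and -0.02 in D (-3.02 ± 0.36, adjusted p = 3.04e-05). G0s2, an inhibitor of adipose triglyceride lipase, was read on every D and no M array, with signals from -5.73 to -5.16 in M and from -2.42 to -0.90 in D, at least 5.93-fold higher (adjusted p = 3.96e-06). Pla2g4a, cytosolic phospholipase A2, fell by 1.07 ± 0.18 (adjusted p = 8.80e-04) and Napepld by 0.61 ± 0.13 (adjusted p = 0.0061). Of 23 tested genes, 1 was higher and 3 were lower.

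Purine genes gave rises. Of 29 tested, 4 were higher, beside 2.05% of all tested genes, none (0) was lower and the median was 0.20. Adssl1, the muscle isoform of adenylosuccinate synthase, read -1.73, -1.39 and -0.79 in M and 2.58, 1.91, 1.21 and 1.61 in D (3.05 ± 0.36, adjusted p = 2.84e-05). Ak4, a mitochondrial adenylate kinase, read -1.19, -1.46 and -1.09 in M and 1.84, 1.86, 1.27 and 1.71 in D (2.88 ± 0.26, adjusted p = 9.50e-07). Neither gene overlapped between lines. Ak5 was at least 1.98-fold higher under the main processing but was not called without D replicates 1 and 3 or with quantile normalization. Aprt, which salvages adenine, was called (0.69 ± 0.19, adjusted p = 0.040) although D replicate 3, at 4.60, lay within the M range, and it was not called without D replicate 1.

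A few genes of sugar metabolism rose. Slc2a4, the insulin-responsive glucose transporter and no member of the list, read -2.76, -3.58 and -2.55 in M and -0.66, 0.03, 0.29 and 0.11 in D (2.87 ± 0.29, adjusted p = 3.09e-06). Ldhd, which oxidises D-lactate, rose by 2.40 ± 0.21 (adjusted p = 7.16e-07), and Slc16a3, a lactate exporter, by 1.67 ± 0.34 (adjusted p = 0.0057). Hk1, hexokinase, rose by 0.87 ± 0.21 (adjusted p = 0.022). In the list of glucose uptake, glycolysis and the pentose phosphate pathway, 3 of 41 genes were higher and none (0) was lower, with a median of 0.06. None (0) of 73 oxidative phosphorylation subunits passed the test, with a median of -0.10, and none (0) of 38 genes of the amino acid stress response did, with a median of -0.05.

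Detoxifying enzymes changed in both directions, with 5 of 57 higher and 6 lower (median -0.20). Gsta4, a glutathione transferase for lipid aldehydes, read -4.18, -4.22 and -5.44 in M and 0.74, -0.40, 0.15 and -0.19 in D (4.70 ± 0.32, adjusted p = 1.85e-08), but only 1 of the 3 M arrays read it. Gstt3, a glutathione transferase of chromosome 10, moved the other way, from 2.56, 2.57 and 2.70 in M to 1.67, 1.47, 0.84 and 1.35 in D (-1.31 ± 0.14, adjusted p = 5.32e-06). Gstt1 (-1.34 ± 0.29) and Mgst1 (-1.45 ± 0.39, not called without D replicate 3) also fell.

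Aldehyde dehydrogenases differed in the same manner. Aldh1a3, which makes retinoic acid, read -3.27, -3.14 and -3.07 in M and -0.10, -0.61, -0.61 and -0.69 in D (2.67 ± 0.25, adjusted p = 1.01e-06). Aldh1a7 was read on all M arrays and on 1 D array, with signals of -2.05 to -1.58 in M and -4.96 to -4.01 in D (-2.79 ± 0.29, adjusted p = 5.32e-06). The folate enzyme Aldh1l1 fell by 1.35 ± 0.31 (adjusted p = 0.012). Dhrs2, a carbonyl reductase, rose by 2.01 ± 0.23 (adjusted p = 1.42e-05), and Dhdh was at least 4.48-fold higher. Cyba, the membrane subunit shared by NADPH oxidases, read 0.49, -0.36 and 0.44 in M and 3.70, 3.21, 2.37 and 2.99 in D (2.81 ± 0.20, adjusted p = 2.95e-08).

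Melanocytic markers had a high signal in both lines. None (0) of the 11 melanocytic markers was called in either direction, with a median difference of -0.15. Without D replicate 1, 4 of the 11 were called lower and the median was -0.30. Without D replicate 3 none (0) was called lower and the median was -0.06, and without both arrays none (0) was and it was -0.14. All 11 estimates of the whole fit were below 0. Without D replicate 3, Mitf (0.27), Dct (0.12), Slc45a2 (0.03) and Mlana (0.03) were above 0 and the others below. Tyr (-0.46 ± 0.22) and Mlana (-0.11 ± 0.20) did not pass. Of 20 genes for melanin synthesis and melanosome structure, 3 were lower and none (0) was higher, with a median of -0.34. Kcnj13, a potassium channel of pigment cells, read 0.13, -0.40 and -0.27 in M and -4.35, -3.77, -2.34 and -3.89 in D, where 3 arrays read it (-3.35 ± 0.55, adjusted p = 7.73e-04). Trpm1, a cation channel gene that MITF drives, was lower (-2.26 ± 0.61, adjusted p = 0.037), but D replicate 1, at 4.11, lay just under the lowest M array, at 4.14, and its 6 probes gave from -2.26 to 0.14. Without D replicate 3, 1 of the 20 genes was called lower, and without D replicate 1 it was 8. In melanosome trafficking 2 of 32 genes were lower, Rab32 (-0.74 ± 0.20, not called without D replicate 3) and Ap3d1 (-0.54 ± 0.13), both on chromosome 10.

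Regulators and markers of melanoma states gave 3 rises and no fall (0) among 31 genes, with a median of -0.03. Besides Aldh1a3 these were Aqp1, a water channel, at -4.07, -3.80 and -4.20 in M and -2.06, -1.66, -1.70 and -1.48 in D (2.33 ± 0.29, adjusted p = 3.97e-05), and Kit (0.67 ± 0.18, adjusted p = 0.035). Aqp1 was read on 1 M array, and Kit was not called without D replicate 3, which left 2 rises in the list. Axl, a receptor linked to the dedifferentiated state, differed by -1.23 ± 0.41 and was not called (adjusted p = 0.099). Of 36 genes named in work on dormancy, 3 were lower, among them Tgfb1 (-1.66 ± 0.32, adjusted p = 0.0033), and none (0) was higher. Tgfb1 read -0.18, -0.18 and 0.11 in M, and D replicate 1, at -0.0014, overlapped these, while the other D arrays read -1.94, -2.25 and -2.39. Rarb, a retinoic acid receptor, fell by 0.87 ± 0.19 (adjusted p = 0.0082) with an overlap at D replicate 1, and Bhlhe41 fell by 0.72 ± 0.17 with its probes at -0.72 and 0.25.

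The cell cycle list showed little change. Of 63 genes tested, 3 were lower (Cdk2 at -0.67 ± 0.19, Ccnd3 at -0.52 ± 0.15 and E2f2 at -0.44 ± 0.10) and none (0) was higher, with a median of 0.03, and without D replicate 3 no gene (0) of the list was called lower. Mki67 differed by -0.34 ± 0.16 and did not pass. Inhibitors of cyclin-dependent kinases and p53 targets gave 4 falls among 26, with Cdkn2c (p18) at 2.98, 3.09 and 3.31 in M and 2.24, 2.62, 2.09 and 2.54 in D (-0.78 ± 0.13, adjusted p = 0.0014). Sesn1 (-0.71 ± 0.15), Cdkn2d (-0.58 ± 0.16) and Cdkn3 (-0.48 ± 0.13) were the others, the last a pair not called without D replicate 3. Of 33 cell death genes, Casp1 (2.01 ± 0.51, read on 1 M array) and Bid (0.46 ± 0.13, not called without D replicate 1) were higher. Neither was called without D replicates 1 and 3.

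Secreted factors and their receptors changed in both directions. Ctf1, cardiotrophin 1, a cytokine of the interleukin 6 family, read -6.43, -6.32 and -6.46 in M, where no array read it, and -0.87, -0.87, -0.31 and -0.65 in D, at least 12.3-fold higher (adjusted p = 1.94e-14). Cx3cl1, the ligand of CX3CR1, read -2.32, -2.68 and -2.36 in M and -1.47, -1.16, -0.60 and -1.19 in D (1.38 ± 0.28, adjusted p = 0.0060). Falls were seen in Ece1, endothelin-converting enzyme (-2.01 ± 0.26, adjusted p = 8.55e-05), Il18 (-1.20 ± 0.25), Csf1 (-0.68 ± 0.13) and Il11ra1 (-0.61 ± 0.17, not called without D replicate 3). Ece1 was not called when the mean of its detected probes replaced the brightest. In all, 2 of 26 genes of this list were higher and 4 lower.

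Among 44 adhesion genes, 5 were lower and 2 higher (median -0.18), a balance that turned with no scaling (3 lower and 5 higher, median 0.05) and was 7 and 4 with quantile normalization. Cd82, a tetraspanin known as a metastasis suppressor, read 3.60, 3.40 and 3.83 in M and 2.38, 1.86, 1.24 and 1.56 in D (-1.90 ± 0.17, adjusted p = 1.00e-06), and its 4 probes gave from -1.90 to -1.07. Cd99, an adhesion glycoprotein outside the list, read 5.03, 5.22 and 5.66 in M and 3.50, 3.42, 2.78 and 3.28 in D (-2.07 ± 0.28, adjusted p = 1.33e-04). F11r, a junction molecule, fell by 1.25 ± 0.24 (adjusted p = 0.0037), Sdc3 by 0.98 ± 0.28 (adjusted p = 0.0498), Icam2 by 0.78 ± 0.20 and Gjb2 by 0.74, while Jam3 (0.73) and Dlg3 (0.59) rose.

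Antigen presentation and checkpoint ligands showed 2 rises and 2 falls among 30 genes. Tapbp, tapasin, was lower by -0.88 ± 0.16 (adjusted p = 0.0019) on 1 probe and at 0.03 on the other, and D replicate 1 overlapped M. Nlrc5, an activator of class I genes, was higher by 1.21 ± 0.32 (adjusted p = 0.033), and Lgals3, galectin 3, by 1.71 ± 0.46 (adjusted p = 0.033). Neither was called without D replicate 3 or without D replicate 1, and Nlrc5 was read on 1 M array.

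Genes of neural lineage changed in both directions. Crmp1, a guide of growing axons, read -1.57, -1.99 and -2.05 in M and 0.73, 0.81, 0.78 and 0.92 in D (2.71 ± 0.16, adjusted p = 4.88e-09), and Tubb2b, a neuronal tubulin, rose by 2.18 ± 0.20 (adjusted p = 8.43e-07). Lhx5, a forebrain transcription factor, was the 1 gene with a RefSeq symbol that was called and was read on every M array and no D array, a count that D replicate 3, with 89.9% of probes read, holds down. It stood at -1.31, -1.58 and -1.40 in M and -5.84, -5.94, -5.57 and -6.90 in D, at least 7.16-fold lower (adjusted p = 2.92e-08). Sema6d fell by 1.71 ± 0.20 (adjusted p = 1.92e-05).

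Nrk, a kinase on the X chromosome, was read on all M arrays and on 1 D array, so that its fold rests on D signals that mostly were not well above background, with -0.97, -0.50 and -0.84 in M and -5.75, -6.04, -4.23 and -5.90 in D (-4.73 ± 0.63, adjusted p = 9.68e-05). Genes read on every M array and on at most 1 D array numbered 13, and Cux2 (-2.89 ± 0.45) and Mamdc2 (-2.73 ± 0.60), each read on 1 D array, were among them. Of 38 components and targets of MAPK, Wnt, Notch and Hedgehog signalling, 3 were higher and none (0) lower. These were Tcf7 (at least 2.45-fold), Myc, at 1.54, 1.12 and 1.29 in M and 2.48, 2.67, 2.01 and 2.25 in D (0.99 ± 0.20, adjusted p = 0.0061), and Batf (0.55 ± 0.13). Tcf7 and Batf were not called with quantile normalization.

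The S100 proteins, small calcium binders, moved in both directions. S100a6 read -3.43, -2.07 and -1.64 in M and 3.92, 0.57, 0.13 and 0.54 in D (3.54 ± 0.62, adjusted p = 0.0015), with D replicate 1 far above the rest. S100b, used as a melanoma marker and located on chromosome 10, read 5.46, 5.43 and 5.86 in M and 4.97, 3.97, 3.51 and 3.84 in D (-1.56 ± 0.22, adjusted p = 1.98e-04), and S100a1 fell by 1.04 ± 0.22 (adjusted p = 0.0079).

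Markers of other cell types changed in single genes. Pdgfrb, a receptor of fibroblasts and mural cells, was read on every D and no M array, with -6.25, -6.29 and -6.42 in M and -2.47, -2.81, -2.80 and -3.72 in D, at least 2.53-fold higher (adjusted p = 1.85e-08), and was 1 of 4 tested fibroblast markers called. Vwf, of endothelial cells, was higher (2.45 ± 0.56, adjusted p = 0.012), with 1 M array reading it, D replicate 1 at 0.14 and the other D arrays at -2.26 to -1.92. Without D replicates 1 and 3 Vwf was not called. The blood marker Coro1a was lower (-1.50 ± 0.40), but D replicate 3, at -1.30, lay above all M arrays, and Coro1a was not called without D replicate 1. Whether other cells had a part in these results was not tested.

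Lower genes were unevenly placed in the genome. On chromosome 10, 138 of 617 tested genes were lower in D (22.4%) and 5 were higher, whereas on each of the other 19 chromosomes 1.28% to 5.71% were lower. The median log2 difference on chromosome 10 was -0.31, against -0.07 to 0.03 elsewhere, and 532 of the 617 estimates were below 0 (86.2%). The chromosome held 4.84% of the tested genes with a RefSeq position and 24.1% of those called lower.

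The mean signal of chromosome 10 genes relative to all tested genes was 0.78, 0.69 and 0.82 in M and 0.64, 0.50, 0.29 and 0.41 in D. Every D array lay below every M array, and the shift was -0.30. An exact two-sided permutation test over arrays gave p = 0.0571, the smallest that 35 splits of 3 and 4 arrays allow, and 1 after Benjamini-Hochberg adjustment over 20 chromosomes, so this design cannot reach 0.05. The shifts of the other chromosomes ran from -0.08 to 0.10. Within slides 1, 2 and 3 the shift of chromosome 10 was -0.25, -0.40 and -0.37. Without D replicate 3 the median was -0.25 and 96 genes were called lower, and without D replicate 1 it was -0.35 with 165.

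The lower signal ran along the whole chromosome. In 12 blocks of 51 or 52 genes in gene order the median lay between -0.42 and -0.17. The largest fall of a chromosome 10 gene was that of Lrrc75b, at -0.35, -0.25 and -0.06 in M and -1.25, -3.21, -2.35 and -2.94 in D (-2.28 ± 0.37, adjusted p = 8.24e-04). Of the 138 genes the median was -0.64, and exceptions such as Hk1 rose.

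**Figure D4:**
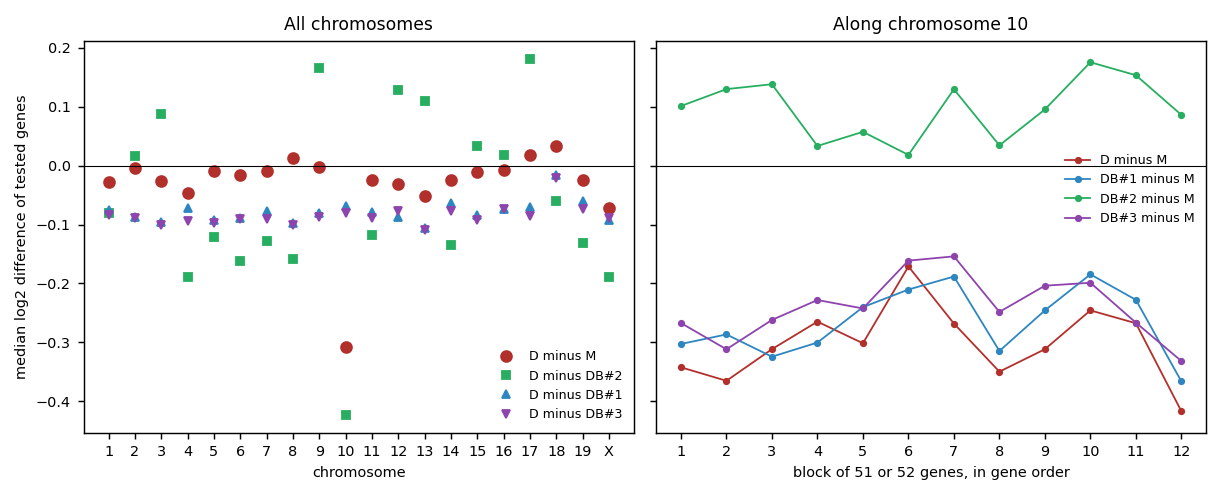
Left, median log2 difference (y axis) of the tested genes of each chromosome (x axis) for D minus M and for D minus each DB line. Right, the same median for D and each DB line minus M in 12 blocks along chromosome 10; D, DB#1 and DB#3 lie below 0 in all blocks and DB#2 above, and all 4 use the same M arrays.

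The study describes a group of genes as deleted in dormant melanoma cells alone, and since it chose them on these cell lines they are not independent evidence of a direction. At the level of chromosome arms the study reports no copy number difference between dormant and parental cells, and it describes differences in several focal segments. Copy number was not measured here. The study took up most genes of the group for lower protein in dormant cells or for protein seen only in parental cells, whereas RNA was measured here. All tested genes of the group but Ass1 lie on chromosome 10. Of 13 tested, 4 were lower: S100b, Gstt3, Lta4h (-0.59 ± 0.11, adjusted p = 0.0023) and Ap3d1 (-0.54 ± 0.13, adjusted p = 0.016). Lta4h, which makes leukotriene B4, read 5.06, 4.88 and 4.95 in M and 4.29, 4.38, 4.16 and 4.59 in D. The others did not pass, from Lrp1 (-0.57), Stx7 (-0.52) and Ass1 (-0.34 ± 0.41) to Wdr18 (0.21), and included the abundant Eef2, at 7.74 to 8.08 in M and 7.31 to 8.07 in D (-0.14 ± 0.14). The median was -0.34, beside -0.31 for the chromosome. All 13 were read on every D array.

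The study also takes up Capg and Septin9, for higher protein in dormant cells, whereas the values here are of RNA. Capg, an actin-capping protein, read 4.10, 3.87 and 4.32 in M and 5.65, 4.72, 4.06 and 4.53 in D and was not called (0.57 ± 0.22, adjusted p = 0.18). Septin9 differed by -0.07 ± 0.12.

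How D stood to its successors was asked in direct contrasts between D and each DB line, in which M is no term, although its arrays enter the common slide effects and spread. Against DB#1 125 genes differed (0.619% of those tested), against DB#2 2367 (11.5%) and against DB#3 101 (0.504%). Of the genes called in D against M and tested again, 50 of 1054 (4.74%) also differed from DB#1, 632 of 1075 (58.8%) from DB#2 and 38 of 1056 (3.60%) from DB#3. In 15 of the 50, 594 of the 632 and 17 of the 38 genes, D differed from the DB line in the same direction as from M. All had been selected for a difference between D and M. Such a gene can still lie further from M in the DB line, on the other side of M. Cx3cl1, for example, differed from M by 1.38 in D and by -3.14 in DB#2. D thus differed from DB#1 and DB#3 at few of the genes called in D against M and from DB#2 at many.

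The interferon genes showed this most plainly. Against DB#2, 30 of 38 tested members were lower in D, beside 1555 of all 20651 tested genes, and none (0) was higher, with a median of -1.54. Against DB#1 1 of 37 was lower, and against DB#3 1 of 35 was higher, with medians of -0.14 and -0.02. Relative to M, with the M arrays shared, the list's median was -0.61 in DB#1, 0.85 in DB#2 and -0.69 in DB#3, beside -0.72 in D. Oas1a, the 1 member called between D and DB#1 (-1.23, adjusted p = 0.017), differed from M by -2.10 in D, -0.87 in DB#1, 1.49 in DB#2 and -1.41 in DB#3.

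Chromosome 10 gave values of the same order. Against DB#2, 237 of 611 tested genes of the chromosome were lower in D, beside 1555 of all 20651 tested genes, and 3 were higher, with a median of -0.42. Against DB#1 3 of 602 were lower (median -0.07) and against DB#3 2 of 601 (median -0.08). Relative to M the medians were -0.26 in DB#1, 0.09 in DB#2 and -0.24 in DB#3. Oxidative phosphorylation subunits, none of which differed between D and M, were lower in D than in DB#2 in 31 of 73 cases, with a median of -0.42. Their mean signal was 5.87 on D replicate 3, beside 6.43 to 6.76 on the other D arrays, and no count without that array is given.

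Several of the largest differences between D and M had DB#1 and DB#3 on the side of D and DB#2 on the side of M. Mgll differed from M by -3.02 in D, -3.11 in DB#1, -2.68 in DB#3 and 0.12 in DB#2, and D lay below DB#2 by a log2 difference of -3.14 (adjusted p = 1.16e-05). Hpse differed from M by -2.40, -2.37, -2.01 and 0.12 in the same order, with D below DB#2 by -2.51 (adjusted p = 8.60e-05). Tubb2b rose by 2.18 in D, 2.92 in DB#1 and 2.99 in DB#3 and stood at -1.84 in DB#2, a gap of 4.02 between D and DB#2 (adjusted p = 2.03e-10). Other genes lay far above M in all 4 lines. Fscn1 differed from M by 3.25 in D and by 3.53, 3.87 and 3.52 in DB#1, DB#2 and DB#3. Myl9, which no M array read, had signals of 0.28 to 0.89 in D, 0.89 to 2.36 in DB#1, 0.71 to 1.10 in DB#2 and 1.54 to 1.99 in DB#3.

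Only 14 genes with a RefSeq symbol, among those called in D against M, also differed between D and each of the 3 DB lines. In 4 of these D differed from every DB line in the same direction as from M, a description that the choice of genes fixes in part. Mfsd13a, a membrane transporter family member, read 0.62, 0.47 and 0.73 in M and -0.87, -0.91, -1.45 and -1.06 in D (-1.70 ± 0.12, adjusted p = 1.85e-08), and D lay below DB#1, DB#2 and DB#3 by log2 differences of -1.09, -1.52 and -1.54. Icam2, an adhesion molecule, was lower in D than in the DB lines by -1.13, -3.39 and -0.91. Relative to M it stood at -0.78 in D and at 2.61 in DB#2, so that DB#2 lay further from M. Cort, the neuropeptide cortistatin, was lower by -1.37, -1.82 and -1.20, and Rgs7bp, which anchors regulators of G protein signalling, by -0.84, -1.19 and -0.95. Without D replicate 3, Rgs7bp was not called in D against M.

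In other genes of this set D lay between M and the DB lines. Ldhd differed from M by 2.40 in D and by 3.85, 5.42 and 4.05 in DB#1, DB#2 and DB#3. Fabp3, a fatty acid-binding protein read on 1 M array, stood at 2.97 in D and at 5.19, 4.65 and 4.94 in the DB lines. Batf, a transcription factor of the AP-1 family, stood at 0.55 in D and at 2.60, 2.45 and 2.60. Fkbp10 and Lysmd2 lay below DB#1 and DB#3 and above DB#2 in D.

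**Figure D5:**
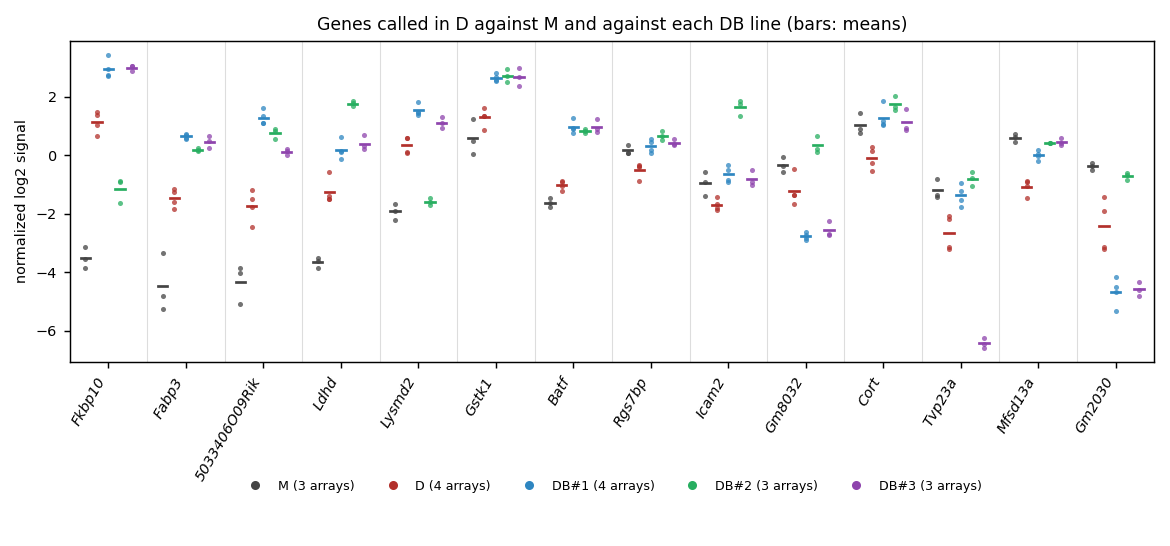
Normalized log2 signal (y axis) of the 14 genes called in D against M and against each DB line, on the arrays of the 5 melanoma lines. Each point is 1 array and bars are means; for Mfsd13a, Rgs7bp, Icam2 and Cort the mean of D lies below that of M and of every DB line.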

How the data were processed

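Total RNA of 7 mouse lines was labelled with cyanine 3 and measured on 24 one-colour Agilent arrays (62976 spots each, 3 slides, every line on every slide). The authors deposited 1 scanner table per array from Agilent Feature Extraction 10.7.3.1, per the file headers designed on mm9, with background-subtracted intensity (gProcessedSignal). The series-wide value table repeated this deposited intensity (1511424 of 1511424 values equal) and stood in for a setting without scaling. Control spots and 117 probes flagged as outliers were left out (56488 kept, 0 saturated). The log2 intensity minus each array's 75th percentile was computed here from the deposited intensity, and of a gene's probes the brightest on average was used. Names came from RefSeq accessions (32917 probes, 22881 symbols), with other names kept from the file. Genes read on all arrays of at least 1 of the compared lines were tested with limma 3.58.1 (R 4.3.3, lmFit and eBayes) on all 24 arrays, with a term per line and slide as a block (15 residual degrees of freedom). P-values were adjusted by Benjamini-Hochberg over all genes tested, and genes were called under 0.05. The number of arrays limits the precision. On simulated data for D against M (20145 genes), 71 of 100 genes changed by log2 1 and 96 of 100 changed by log2 2 were called, with 4 of 19945 unchanged ones. The simulation gave each gene the same spread on every array and no slide effect, so these rates do not cover arrays that stand apart, such as D replicates 1 and 3.

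Named genes were the 12 largest rises and falls among called genes read on all 7 arrays without overlap, up to 5 per direction with the largest bound among those read in 1 line only, the 5 largest falls among those read on every M and at most 1 D array, up to 4 called members per list with the largest change, and genes the study names. Other members named in the text, and those called against all DB lines, were chosen after their values were seen. The gene lists and comparisons were chosen with earlier results of these data known. For a bound, each array of the dim line took its own signal or the lowest signal marked well above background there, whichever was higher, and the mean of these was set against the mean of the bright line. A bound holds for this processing only, and estimates under the alternatives could be smaller. Promoter sequences of chromosome 18 were not used, and some genes of the lists are counted but not reported here. The mean spot signal that a planned background correction needed (normexp, offset 50) was not used here, and the median spot signal replaced it. Arrays of all lines were checked for identical values (0 pairs). The closing section gives the alternatives tried.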

Additional observations from a re-analysis of the deposited data

Results flagged for a closer look

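In 10 of 107 called genes named by the rule, 1 D array lay far from the other 3 (Dixon's test at the 95% level, which chance passes in about 1 of 20 groups). In 8 of the 10 it was D replicate 1, the array with the lowest share of probes read. Its normalized log2 signals were 3.92 for S100a6, -0.10 for Aldh1a3, 0.14 for Vwf and -0.58 for Ldhd, each above the other D arrays. They were 0.49 for Il18, -2.42 for Gm10487, -0.52 for Spaca9 and 1.87 for Mgll, again above the other D arrays and, in these 4, nearer to M. D replicate 3, with the highest share of probes read, gave 1.76 for P4ha2, below the other D arrays, and -4.23 for Nrk, above them. All 10 genes differed between D and M in the same direction without these arrays.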

How the results depend on the processing

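Of 1083 genes called in D against M, the number was 392 at 2-fold or more, 367 against a fold of 1.2 (limma treat), 5452 with array quality weights, 607 with no filter on dim probes, 105 with the 7 arrays alone, 596 without the slide block and 637 without that block and D replicate 3 (added after seeing the data). The 7 fits that left out 1 array gave 465 (without M replicate 3) to 1699 (without D replicate 1), with 538 without M replicate 2. Quantile normalization (1406), normexp correction (965) and a percentile over probes read on all arrays (1286) stayed within 1.5 times, but the split moved from 413 higher and 670 lower to 645 and 641 with that percentile and to 670 and 180 (850 in all) without scaling, where the median of all genes was 0.22. Replicate numbers did not pair the arrays (correlations of deviations 0.19, -0.33 and -0.36), and with the replicate number as a block 671 genes were called in D against M, 1411 in D against DB#2 and 56 in D against DB#3. Against DB#2 1310 were called without the slide block. Leaving out 1 array gave 78 (without DB#1 replicate 3) to 153 (without D replicate 1) in place of 125 calls in D against DB#1, with 79 and 82 without DB#1 replicates 1 and 2, 1360 (without DB#2 replicate 2) to 3682 (without D replicate 1) against DB#2, with 1483 without DB#2 replicate 3, and 32 (without DB#3 replicate 5) to 267 (without D replicate 1) against DB#3, with 64 and 52 without DB#3 replicates 3 and 4. The direction reversed for Col4a2 and Lamb1 within slide 3 (-0.18 and -0.12) and for Coro1a within slide 2 (0.15). Of the 118 named genes, 75 lost their call with the 7 arrays alone, 43 without M replicate 3 and 25 with the replicate block. Of the 19 interferon genes that fell, the number called lower in the list was 12 with the replicate block, 11 without scaling and 2 with the 7 arrays alone, and for the 10 sterol genes it was 1, 1 and 0. The shift of chromosome 10 kept its direction under every alternative run. The run without scaling could not change it, because scaling cancels when all tested genes of the same array are subtracted. The cause of these differences was not tested.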
